A study of Mus musculus with 9 samples.

Results

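Integrins are the cell surface receptors that hold a fibroblast to its matrix, and each is a pair of 1 alpha and 1 beta subunit. The alpha subunit largely sets which ligand is bound, and a few beta subunits serve many alphas. Laminins are the cross-shaped glycoproteins of basement membranes, each assembled from 1 alpha, 1 beta and 1 gamma chain, and several integrins bind them. Src, the kinase from which the viral oncoprotein v-Src derives, is itself recruited to integrin adhesions, while STAT3 is a transcription factor that Src-family kinases can activate.

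The genes described here were the 35 integrin and laminin subunits of a given list, found as every probeset (a set of short probes reading 1 transcript region) whose only annotated mouse gene symbol was on that list. This gave 73 of the 45037 probesets tested and 34 of the 35 genes, 24 integrin subunits and 10 laminin chains. The annotation used here paired no probeset with Itga11. Transcript levels were measured on 9 Affymetrix Mouse Genome arrays, 3 for each of 3 Balb/c-3T3 lines, an established line of mouse embryo fibroblasts. One line carried v-Src after stable transfection with pMvSrc (arrays 1, 5 and 6 as labelled), one carried the constitutively active mutant STAT3-C after stable transfection with pRc/CMV-STAT3C (arrays 1, 2 and 3), and the control cells carried no added gene (arrays 1, 2 and 3). All were grown in DMEM with bovine calf serum. The 3 arrays of a line came from consecutive passages of that line, with dishes pooled at each passage, so the p-values below measure the spread between passages of 1 line and not between independently derived lines. No empty-vector line was among the groups. A transfected gene and any other difference between the lines therefore cannot be told apart.

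Values are given as deposited, on the log2 scale, where a difference of 1 is a doubling. A change "passed" when limma's adjusted p over all 45037 probesets was under 0.05 and the fold was at least 1.5. Where a gene had several probesets, the one with the highest mean over the 9 arrays stands for it, and probesets that differed in their call are named. The lower quartile of all tested values, 5.12, serves as a mark for values near background, and 17 of the 73 probesets lay at or below it in the mean of every line, as did all of Itgam, Itgb6 and Lama1. Levels of different probesets are not compared with each other, since probes differ in brightness.

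The arrays were alike in scale, with medians of 6.27 to 6.39. Pearson correlations over all probesets were 0.990 to 0.995 within a line, 0.971 to 0.977 between v-Src and STAT3-C arrays, 0.943 to 0.948 between v-Src and control arrays and 0.944 to 0.948 between STAT3-C and control arrays. Of 10 fibroblast markers, 9 were above the lower quartile in every line. The summed linear level of the 10 was 39607 to 49526 in v-Src cells, 40717 to 41375 in STAT3-C cells and 56946 to 62437 in control cells. In v-Src cells 5 were lower and 1 higher, where 10.4% of all genes were lower and 9.54% higher. In STAT3-C cells 6 were lower and 1 higher, where 10.3% of all genes were lower and 11.9% higher. The higher marker was S100a4, by 0.65 ± 0.16 (SE) in v-Src cells and 0.89 ± 0.16 in STAT3-C cells. Vim did not pass in either line. Thy1, a surface marker of many fibroblasts, fell by 5.17 in v-Src cells (SE 0.21) and fell by 5.18 in STAT3-C cells (SE 0.20), and Fap was under the lower quartile in every line. In bulk RNA such as this, fewer cells of a type and less RNA per cell cannot be told apart. Stat3 at its brightest probeset read 10.69, 10.47 and 10.94 in v-Src cells, 9.52, 9.52 and 9.18 in STAT3-C cells and 8.89, 9.23 and 9.38 in control cells, so only the v-Src arrays stood clear of the control arrays there. A second Stat3 probeset read 10.31, 9.95 and 10.49 in v-Src cells, 9.85, 9.86 and 9.30 in STAT3-C cells and 8.93, 8.92 and 8.99 in control cells, and passed in both lines, with a difference of 1.30 ± 0.14 in v-Src cells and 0.72 ± 0.15 in STAT3-C cells. The mouse Src probesets were not made for the viral gene and check nothing about v-Src.

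RefSeq promoter windows (build GRCm38.p6, from 250 bases before to 50 after a start) were matched for 23 of the 35 listed genes, giving 26 windows. They were searched for the STAT consensus TTCNNNGAA, which reads the same on both strands, and for the GC box GGGCGG on either strand. For the necdin promoter the study used a looser STAT3 pattern over a longer upstream stretch. Sites of that kind were not searched for here. No STAT match overlapped a GC box in these windows. The STAT consensus was in 2 of the 26 windows (7.69%), against 8.3% of all 32851 windows of that length, and a GC box was in 12 (46.15%), against 35.66% of all windows. Of the 10 matched genes that passed in at least 1 comparison, 1 held the STAT consensus and 5 held a GC box. The 5 windows below are from some of the genes with the main results. Itga3, Itgb8 and Lama5 were higher in both transfected lines, and Lamb1 moved in opposite directions in them. Lamb2 was lower in v-Src cells and did not pass in STAT3-C cells. Windows of Itgb1 and Itgb7, which also passed in both lines, are not shown. The windows shown run 5′ to 3′ on the gene's strand, with motif matches in capitals.
Itga3: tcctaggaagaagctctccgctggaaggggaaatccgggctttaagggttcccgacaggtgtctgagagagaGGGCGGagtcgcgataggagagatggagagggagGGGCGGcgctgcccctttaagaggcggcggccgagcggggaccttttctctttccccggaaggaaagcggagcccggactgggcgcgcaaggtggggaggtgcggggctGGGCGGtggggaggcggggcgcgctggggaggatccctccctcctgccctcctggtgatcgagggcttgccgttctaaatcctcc
Itgb8: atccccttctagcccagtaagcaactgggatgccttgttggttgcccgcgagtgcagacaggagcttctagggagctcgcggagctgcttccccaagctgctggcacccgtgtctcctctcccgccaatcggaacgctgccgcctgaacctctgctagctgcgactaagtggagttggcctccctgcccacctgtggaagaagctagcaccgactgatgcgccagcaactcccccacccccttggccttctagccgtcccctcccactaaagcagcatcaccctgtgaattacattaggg
Lama5: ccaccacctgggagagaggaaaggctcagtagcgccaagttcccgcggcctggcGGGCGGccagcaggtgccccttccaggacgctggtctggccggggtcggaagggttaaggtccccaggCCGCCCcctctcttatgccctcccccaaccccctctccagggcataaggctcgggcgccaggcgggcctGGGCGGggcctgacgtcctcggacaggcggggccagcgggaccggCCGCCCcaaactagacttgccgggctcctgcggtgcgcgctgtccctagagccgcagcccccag
Lamb1: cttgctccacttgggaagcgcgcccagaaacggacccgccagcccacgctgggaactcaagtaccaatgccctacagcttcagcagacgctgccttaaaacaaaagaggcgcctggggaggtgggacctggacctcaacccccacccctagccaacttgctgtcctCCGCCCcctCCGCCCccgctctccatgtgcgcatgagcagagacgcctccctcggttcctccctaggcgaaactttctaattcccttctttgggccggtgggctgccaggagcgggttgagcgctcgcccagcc
Lamb2: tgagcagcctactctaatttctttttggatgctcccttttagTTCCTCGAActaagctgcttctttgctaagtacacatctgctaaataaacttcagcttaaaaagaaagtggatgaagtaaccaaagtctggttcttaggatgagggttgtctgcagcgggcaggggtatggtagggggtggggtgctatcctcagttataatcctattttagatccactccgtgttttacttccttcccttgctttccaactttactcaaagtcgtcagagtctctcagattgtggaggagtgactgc
These are Itga3 at chr11:95076665-95076964 (minus strand), Itgb8 at chr12:119238227-119238526 (minus), Lama5 at chr2:180225810-180226109 (minus), Lamb1 at chr12:31265043-31265342 (plus) and Lamb2 at chr9:108479612-108479911 (plus). Lama5 held 4 GC boxes, this Itga3 window held 3 and Lamb1 held 2, while the Itgb8 window held neither motif. Another Itga3 window, not shown, held 1 GC box. The Lamb2 window held the single STAT match TTCCTCGAA, which began 208 bases before the start. A match describes the letters of a window and is not evidence of binding.

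Against control cells, 7 of the 34 subunit genes were higher in v-Src cells (20.6%) and 3 were lower (8.82%), where 9.54% of all 18193 genes were higher, 10.4% lower and 19.9% either. The median log2 difference of the 34 genes was 0.08, beside 0.02 over all genes. By probeset, 18 of 73 were higher and 7 lower, against 8.75% and 8.1% of all probesets. In STAT3-C cells 7 genes were higher (20.6%) and 4 lower (11.8%), where 11.9% of all genes were higher, 10.3% lower and 22.2% either, with a median of 0.01 beside 0.04 over all genes. By probeset, 14 were higher and 9 lower, against 9.68% and 8.58% of all probesets. Both comparisons use the same 3 control arrays. The genes higher in both lines were Itga3, Itga6, Itgb7, Itgb8 and Lama5, those lower in both were Itgb1 and Lama4, and Lamb1 was higher in v-Src and lower in STAT3-C cells. The remaining calls against control were made in 1 line each, and 20 genes passed in none of the 3 comparisons. How many of all genes passed in both lines or in none was not counted, so no share stands beside these counts.

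**Figure D1:**
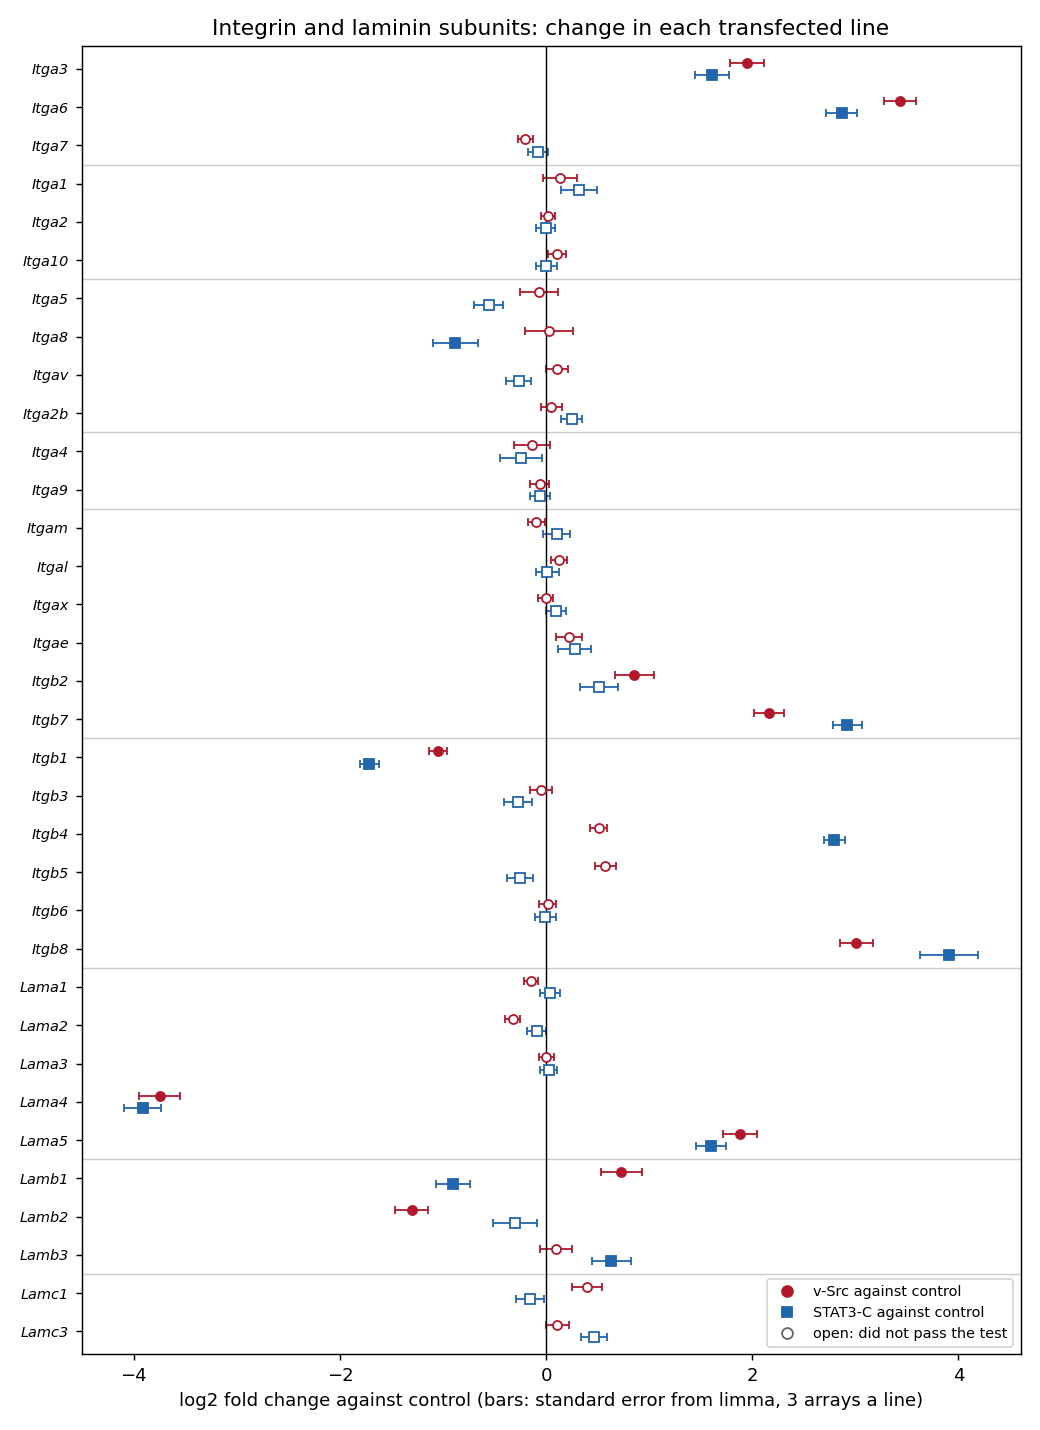
Log2 difference from control cells for the subunit genes, with v-Src cells as red circles and STAT3-C cells as blue squares. Bars are standard errors from the limma fit with 3 arrays a line, and filled symbols passed the test. Itga6, Itgb8, Itgb7, Itga3 and Lama5 lie to the right for both lines, Lama4 and Itgb1 to the left for both, and the symbols of Itgb4, Lamb1 and Lamb2 lie apart.

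Among the alpha subunits that bind laminin, Itga6 and Itga3 were strongly higher in both transfected lines. Itga6, the receptor subunit of epithelial hemidesmosomes and of many stem cells, read 10.10, 9.80 and 10.34 in v-Src cells, 9.27, 9.78 and 9.49 in STAT3-C cells and 6.46, 6.84 and 6.64 in control cells. Every transfected array was more than 2 log2 units above every control array. The difference from control was 3.43 ± 0.16 (SE) in v-Src cells, a 10.8-fold increase (limma adjusted p = 1.62e-05), and 2.87 ± 0.15 in STAT3-C cells, a 7.29-fold increase (limma adjusted p = 1.01e-05). The second Itga6 probeset also passed, at 2.88 ± 0.16 in v-Src cells and 1.72 ± 0.17 in STAT3-C cells.

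Itga3, the partner of Itgb1 in a receptor for laminins of epithelial basement membranes, read 9.51, 9.23 and 9.75 in v-Src cells, 8.98, 9.47 and 9.04 in STAT3-C cells and 7.37, 7.81 and 7.47 in control cells. The lowest transfected array was above the highest control array. Its difference from control was 1.95 ± 0.16 in v-Src cells (3.85-fold, limma adjusted p = 0.000212) and 1.61 ± 0.16 in STAT3-C cells (3.05-fold, limma adjusted p = 0.000227). Its other 2 probesets also passed in both lines, with differences of 1.04 and 1.52 in v-Src cells and of 0.81 and 0.75 in STAT3-C cells. Itga7, the laminin receptor subunit best known from skeletal muscle, differed by -0.20 in v-Src cells and -0.08 in STAT3-C cells and did not pass.

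The beta partners of these alphas went different ways. Itgb1, the subunit shared by most matrix-binding integrins, read 11.08, 10.95 and 11.14 in v-Src cells, 10.34, 10.45 and 10.39 in STAT3-C cells and 12.19, 12.01 and 12.12 in control cells. The 3 lines did not overlap, with control cells highest and STAT3-C cells lowest. Itgb1 fell by 1.05 on the log2 scale in v-Src cells (SE 0.09, 2.07-fold, limma adjusted p = 0.000198) and fell by 1.71 in STAT3-C cells (SE 0.09, 3.28-fold, limma adjusted p = 1.05e-05). Of its 6 probesets, 3 were lower in both lines, 1 more with a mean of 4.78 or less in each line was lower in v-Src cells alone, and 2 passed in neither. When all 6 were averaged, the v-Src difference was -0.54 and missed the fold threshold.

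Itgb4, which pairs only with Itga6 and anchors hemidesmosomes to keratin filaments, read 6.15, 6.17 and 6.18 in v-Src cells, 8.42, 8.56 and 8.37 in STAT3-C cells and 5.59, 5.79 and 5.58 in control cells. The STAT3-C arrays stood far above both other lines. The difference from control was 2.80 ± 0.10 in STAT3-C cells (6.95-fold, limma adjusted p = 1.51e-06). In v-Src cells it was 0.51 ± 0.08 (limma adjusted p = 0.00363), under the fold threshold. Of 8 epithelial markers, the cell type in which Itgb4 is best known, none passed against control in either line, with a summed linear level of 1295 to 1419 in v-Src cells, 995 to 1093 in STAT3-C cells and 1010 to 1235 in control cells. Of 6 hemidesmosome components, none passed in v-Src cells. In STAT3-C cells the tetraspanin Cd151, which associates with laminin-binding integrins, was higher by 0.60 ± 0.12 (limma adjusted p = 0.00622), and Dst, the gene of the plakin dystonin, fell by 0.65 (SE 0.18, limma adjusted p = 0.0279).

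**Figure D2:**
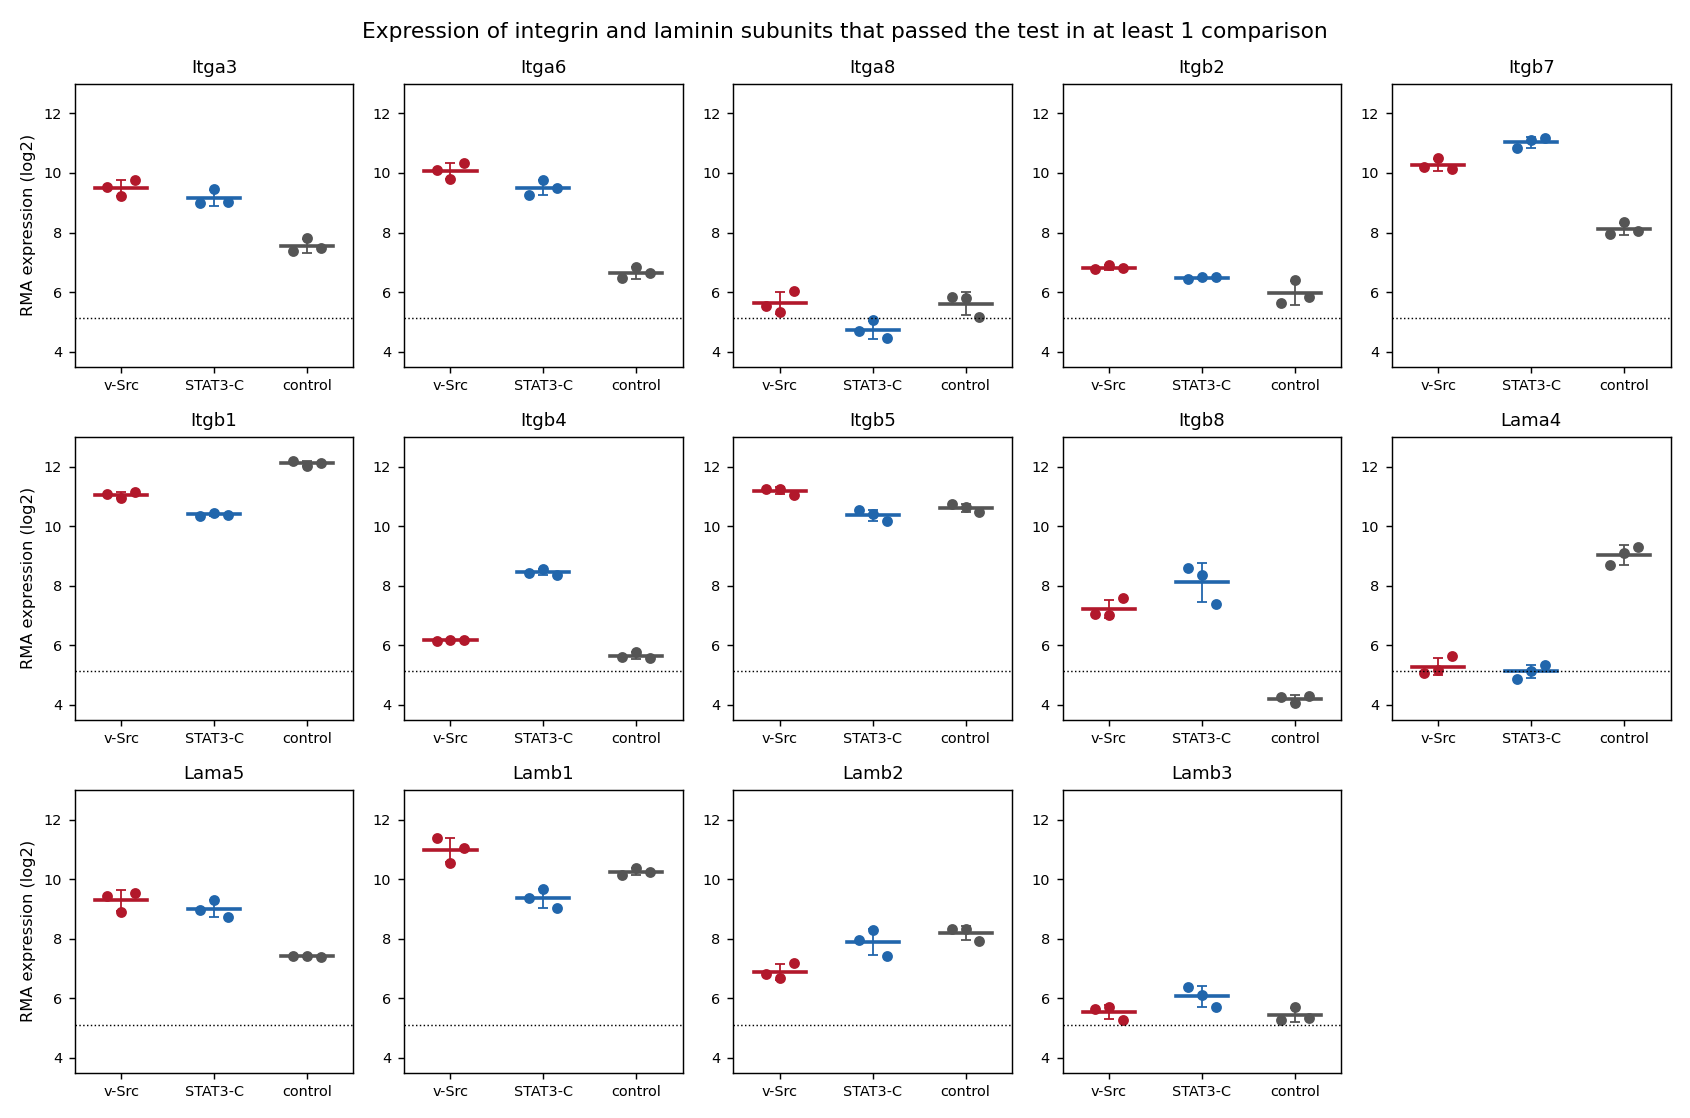
Log2 level of the 14 subunit genes that passed in at least 1 comparison, 1 panel a gene, with v-Src, STAT3-C and control arrays from left to right. Points are arrays, bars are the mean ± SD of 3, and the dotted line is the lower quartile of all tested values, 5.12. The STAT3-C points of Itgb4 lie alone at the top, the control points of Itgb8 lie below the dotted line, and the transfected points of Lama4 lie on it.

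The receptors of fibronectin, vitronectin and latent TGF-beta bind an RGD motif in their ligands. Itgb8, which with Itgav binds and releases latent TGF-beta, was the member with the largest increase in STAT3-C cells. It read 7.05, 7.01 and 7.57 in v-Src cells, 8.58, 8.37 and 7.38 in STAT3-C cells and 4.26, 4.05 and 4.29 in control cells. All control values were under 5.12, so the differences from control may understate the change. They were 3.01 ± 0.16 in v-Src cells (8.06-fold, limma adjusted p = 3.15e-05) and 3.91 ± 0.28 in STAT3-C cells (limma adjusted p = 3.91e-05). Itgb8 also had the widest spread within lines of any subunit gene, with a pooled SD of 0.42, beside a median of 0.16 over the 34 genes and 0.14 over all genes.

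Itgb5, another partner of Itgav and a vitronectin receptor subunit, was read by 4 probesets that did not make the same calls. Its brightest read 11.26, 11.26 and 11.05 in v-Src cells, 10.54, 10.39 and 10.16 in STAT3-C cells and 10.74, 10.64 and 10.47 in control cells. The v-Src arrays lay above all others, and STAT3-C overlapped control. The v-Src difference of 0.57 ± 0.10 (limma adjusted p = 0.00521) fell just short of the fold threshold. Leaving out v-Src array 6, control array 1 or control array 2 brought it past, at 0.64, 0.63 and 0.59. Of the other 3 probesets, 2 passed in v-Src cells, at 0.82 and 0.76, and the last passed in STAT3-C cells, at 0.75.

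Itgav, the alpha partner of Itgb3, Itgb5, Itgb6 and Itgb8, did not pass at its brightest probeset, which read 11.54, 11.41 and 11.63 in v-Src cells, 11.10, 11.33 and 11.03 in STAT3-C cells and 11.51, 11.23 and 11.52 in control cells. The v-Src and control arrays overlapped. A second of its 5 probesets read 9.36, 9.52 and 10.08 in v-Src cells, 8.43, 8.48 and 8.42 in STAT3-C cells and 8.05, 8.33 and 8.81 in control cells. That probeset was higher in v-Src cells by 1.25 ± 0.24 (limma adjusted p = 0.00795) and differed by 0.05 in STAT3-C cells. Another passed in v-Src cells at 0.70, and fell under the fold threshold at 0.54 without v-Src array 6.

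Itga8, a receptor subunit for nephronectin in the developing kidney, was low in all lines. It read 5.53, 5.34 and 6.03 in v-Src cells, 4.69, 5.05 and 4.44 in STAT3-C cells and 5.84, 5.81 and 5.17 in control cells. STAT3-C arrays were all under 5.12 and below every control array, and v-Src arrays overlapped control. Itga8 fell by 0.88 in STAT3-C cells (SE 0.21, limma adjusted p = 0.016), and lost the call without control array 1 (-0.76), control array 2 (-0.78), STAT3-C array 1 (-0.86) or STAT3-C array 3 (-0.74). Its second probeset did not pass, and the average of both differed by -0.50 and missed the fold threshold.

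Itga5, the main fibronectin receptor subunit, differed by -0.07 in v-Src cells and by -0.56 in STAT3-C cells (limma adjusted p = 0.019), the second under the fold threshold but past it without control array 2 (-0.71). Itgb3 differed by -0.05 and Itga2b, its platelet partner, by 0.05 in v-Src cells. In STAT3-C cells the differences were -0.27 for Itgb3 and 0.25 for Itga2b. Itgb6, an epithelial partner of Itgav, stayed at or below 4.86 in the mean of every line.

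The collagen-binding alphas and the alphas of another small class passed in no comparison with all arrays in the fit. Itga1, Itga2 and Itga10, receptor subunits for fibrillar and basement membrane collagens, differed from control by 0.02 to 0.13 in v-Src cells and by at most 0.32 in STAT3-C cells. Itga4 and Itga9, which bind fibronectin splice forms, tenascin and Vcam1, differed by -0.13 and -0.06 in v-Src cells and by -0.24 and -0.06 in STAT3-C cells. A second Itga9 probeset differed by 0.50 ± 0.17 in STAT3-C cells (limma adjusted p = 0.0619) and passed without STAT3-C array 2 (0.69). Across the 20 genes that passed in no comparison at the probeset standing for them, the differences at that probeset ran from -0.56 to 0.55, over line means of 4.34 to 11.53. Among these 20, Lamc1, Itgav, Itgae and Itga5 each had another probeset that passed.

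Of the subunits best known from leukocytes, Itgb7 and Itgb2 passed. Itgb7, the partner of Itga4 and Itgae in lymphocyte homing and retention, read 10.20, 10.51 and 10.12 in v-Src cells, 10.82, 11.11 and 11.17 in STAT3-C cells and 7.95, 8.35 and 8.04 in control cells. The 3 lines did not overlap, with STAT3-C highest. Its difference from control was 2.16 ± 0.14 in v-Src cells (4.48-fold, limma adjusted p = 7.7e-05) and 2.92 ± 0.14 in STAT3-C cells (7.57-fold, limma adjusted p = 5.67e-06).

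Itgb2, the beta subunit of the leukocyte integrins, read 6.76, 6.92 and 6.79 in v-Src cells, 6.44, 6.50 and 6.50 in STAT3-C cells and 5.65, 6.42 and 5.84 in control cells. Control array 2 came close to the STAT3-C arrays. Itgb2 was higher in v-Src cells by 0.85 ± 0.19 (limma adjusted p = 0.0139), a call lost without control array 3 (0.79, limma adjusted p = 0.0561). The STAT3-C difference of 0.51 did not pass (limma adjusted p = 0.0696). Of the 6 arrays, it passed on leaving out control array 2 (0.74) alone.

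The alpha partners of these betas did not move in the same way. Itgal, Itgax and Itgam, the partners of Itgb2 in lymphocyte and myeloid integrins, differed from control by -0.09 to 0.12 in v-Src cells and by 0.01 to 0.10 in STAT3-C cells, and Itgam was below 5.12 in every line. Itgae, a partner of Itgb7, did not pass at its brightest probeset, but its second probeset was higher in STAT3-C cells by 1.04 ± 0.12 (limma adjusted p = 0.000406). Of 8 leukocyte markers, 2 were higher in v-Src cells and 3 in STAT3-C cells, and none was lower. Their summed linear level was 2097 to 2494 in v-Src cells, 2148 to 2880 in STAT3-C cells and 1099 to 1235 in control cells. Cd14, which passed in both lines at 2.12 in each, and Lyz2 were higher in both transfected lines and Cd68 in STAT3-C cells, while Csf1r, Cd3e, Laptm5, Adgre1 and Ptprc did not pass. Ptprc, the pan-leukocyte surface phosphatase CD45, averaged 4.10 in v-Src cells, 4.36 in STAT3-C cells and 3.99 in control cells, under 5.12 in all. The part of other cell types in these differences was not tested further.

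The laminin alpha chains, which carry the main integrin-binding domains, moved in opposite directions, with Lama4 lower and Lama5 higher in both transfected lines. Lama4, a chain of mesenchymal and vascular basement membranes, read 5.07, 5.16 and 5.63 in v-Src cells, 4.88, 5.14 and 5.34 in STAT3-C cells and 8.68, 9.11 and 9.31 in control cells. The transfected arrays lay around the lower quartile of the array, more than 3 log2 units under the control arrays. Lama4 fell by 3.75 in v-Src cells (SE 0.20, 13.4-fold, limma adjusted p = 3.27e-05) and by 3.91 in STAT3-C cells (SE 0.18, 15.1-fold, limma adjusted p = 4.86e-06). The transfected values are near background, so these differences may be understated. The second Lama4 probeset fell by less, by 1.28 in v-Src cells and by 1.56 in STAT3-C cells.

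Lama5, the widespread alpha chain of adult epithelial basement membranes, read 9.45, 8.89 and 9.53 in v-Src cells, 8.98, 9.31 and 8.74 in STAT3-C cells and 7.43, 7.42 and 7.38 in control cells. All transfected arrays were above all control arrays. The difference was 1.88 ± 0.16 in v-Src cells (3.69-fold, limma adjusted p = 0.000246) and 1.60 ± 0.14 in STAT3-C cells (3.03-fold, limma adjusted p = 0.000118). A second probeset passed in both lines at 1.73 in v-Src and 1.36 in STAT3-C cells, and the third, under 5.12 in the mean of every line, passed in neither. Lama1, an embryonic chain, Lama2, the muscle and nerve chain, and Lama3, a chain of epidermal laminin, differed by -0.32 to 0.00 in v-Src cells and by -0.09 to 0.04 in STAT3-C cells and did not pass, the Lama2 difference of -0.32 (limma adjusted p = 0.015) being under the fold threshold.

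The laminin beta chains parted the transfected lines. Lamb1, the beta chain of the early embryonic and most widespread laminins, read 11.38, 10.56 and 11.04 in v-Src cells, 9.38, 9.68 and 9.02 in STAT3-C cells and 10.14, 10.39 and 10.25 in control cells. The 3 lines did not overlap, v-Src being highest and STAT3-C lowest. Against control, Lamb1 was higher by 0.73 ± 0.20 in v-Src cells (limma adjusted p = 0.0304) and fell by 0.90 in STAT3-C cells (SE 0.16, limma adjusted p = 0.00425). The v-Src call was lost without v-Src array 1 (0.54), v-Src array 6 (0.71) or control array 1 (0.67), 2 (0.80) or 3 (0.73).

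Other probesets of Lamb1 gave wider differences. One read 10.17, 9.70 and 10.31 in v-Src cells, 7.16, 7.66 and 7.52 in STAT3-C cells and 8.65, 8.82 and 8.81 in control cells, a difference from control of 1.30 ± 0.16 in v-Src cells (limma adjusted p = 0.00102) and of -1.31 ± 0.14 in STAT3-C cells (limma adjusted p = 0.000262). These calls held with any 1 array left out. Another passed in opposite directions too, at 0.82 in v-Src cells and -1.34 in STAT3-C cells, its v-Src call lost without v-Src array 1 (0.70) or 6 (0.72) or control array 1 (0.70) or 3 (0.84). The fourth passed in neither line against control, at 0.20 in v-Src cells and -0.52 in STAT3-C cells.

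Lamb2, the beta chain of neuromuscular and kidney filter laminins, read 6.80, 6.69 and 7.18 in v-Src cells, 7.95, 8.29 and 7.43 in STAT3-C cells and 8.33, 8.32 and 7.93 in control cells. The v-Src arrays lay below all others, and STAT3-C overlapped control. Lamb2 fell by 1.30 in v-Src cells (SE 0.16, 2.47-fold, limma adjusted p = 0.00113) and differed by -0.30 in STAT3-C cells (limma adjusted p = 0.339, 95% interval -0.80 to 0.19).

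Lamb3, the beta chain of epidermal laminin, was low, at 5.65, 5.69 and 5.28 in v-Src cells, 6.40, 6.13 and 5.69 in STAT3-C cells and 5.27, 5.71 and 5.35 in control cells. STAT3-C array 3 lay within the control range. The STAT3-C difference of 0.63 ± 0.19 passed narrowly (limma adjusted p = 0.0383) and was lost without control array 1 (0.55) or 3 (0.59) or STAT3-C array 1 (0.47) or 2 (0.60). In v-Src cells the difference was 0.10.

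For the gamma chains, the probesets of Lamc1, the gamma chain of nearly all laminins, did not give the same result. The brighter read 10.56, 10.11 and 10.65 in v-Src cells, 9.66, 10.19 and 9.81 in STAT3-C cells and 10.06, 10.11 and 9.97 in control cells. It passed against control in neither line, at 0.40 in v-Src cells and -0.16 in STAT3-C cells. The other read 10.12, 9.77 and 10.07 in v-Src cells, 7.75, 8.29 and 8.85 in STAT3-C cells and 7.28, 7.21 and 7.23 in control cells.

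In that second Lamc1 probeset the 3 lines did not overlap. It was higher by 2.75 ± 0.11 in v-Src cells (6.71-fold, limma adjusted p = 8.1e-06) and by 1.06 ± 0.24 in STAT3-C cells (limma adjusted p = 0.0115). The average of both probesets was higher in v-Src cells by 1.57. Lamc3, a chain of brain and reproductive tissue, differed by 0.11 in v-Src cells and by 0.47 in STAT3-C cells (limma adjusted p = 0.0277), under the fold threshold.

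**Figure D3:**
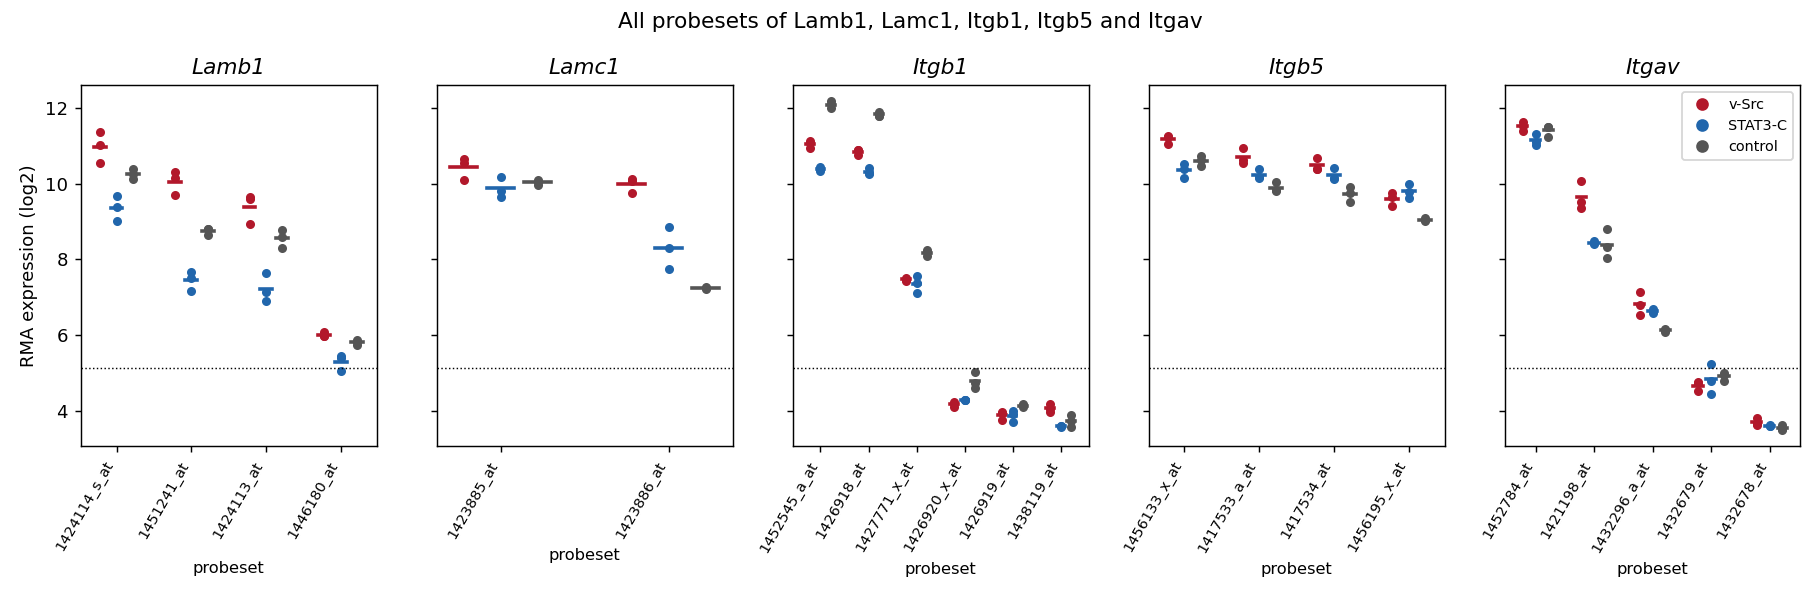
Log2 level at every probeset of Lamb1, Lamc1, Itgb1, Itgb5 and Itgav, 5 of the genes whose probesets differed in a call, with v-Src, STAT3-C and control arrays side by side. Points are arrays and short bars are means of 3. The order v-Src, control, STAT3-C from high to low is seen at the Lamb1 probesets, while the 2 Lamc1 probesets show different orders of the lines.

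Set directly against STAT3-C cells, v-Src cells had 4 of the 34 genes higher (Itga8, Itgb1, Itgb5 and Lamb1) and 3 lower (Itgb4, Itgb7 and Lamb2), where 4.84% of all genes were higher and 6.83% lower. The median difference was 0.02, beside -0.03 over all genes. By probeset, 12 of 73 were higher and 4 lower, against 4.99% and 5.33% of all probesets. Per the study's methods, the control arrays were normalized once with each transfected line. Which run the deposited columns come from was not given in the sources used here, and if each transfected line was normalized in its own run, run and line cannot be told apart in this comparison.

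The largest direct differences were in a receptor and a laminin chain. In v-Src cells Itgb4 was lower by 2.28 log2 units (SE 0.08, 4.87-fold, limma adjusted p = 2.98e-05), with v-Src arrays at 6.15 to 6.18 and STAT3-C arrays at 8.37 to 8.56. Lamb1 was higher in v-Src cells by 1.63 ± 0.23 (3.09-fold, limma adjusted p = 0.00366), and its other 3 probesets also passed, at 2.61, 2.17 and 0.72. The v-Src and STAT3-C arrays did not overlap for either gene.

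Smaller differences passed for 5 genes. Itgb1 was higher in v-Src cells by 0.67 ± 0.08 (limma adjusted p = 0.0022) and Itgb5 by 0.83 ± 0.12 (limma adjusted p = 0.00344), although averaging all probesets of a gene took both under the threshold, at 0.28 and 0.34. Itgb7 was lower in v-Src cells by 0.76 (SE 0.14, limma adjusted p = 0.00841). Lamb2 was also lower in v-Src cells, by 1.00 (SE 0.22, limma adjusted p = 0.0197), a call lost without v-Src array 1 (-0.96) or 5 (-0.90) or STAT3-C array 1 (-0.97) or 2 (-0.80). Itga8 was higher in v-Src cells by 0.91 ± 0.21 (limma adjusted p = 0.0227), lost without v-Src array 1 (0.96) or 6 (0.71) or STAT3-C array 1 (0.89) or 3 (0.77).

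Of the 5 genes higher in both lines against control, 4 did not pass between the lines at their brightest probeset. The difference of v-Src minus STAT3-C was 0.33 for Itga3 (95% interval -0.07 to 0.74), 0.57 for Itga6 (0.17 to 0.97), 0.28 for Lama5 (-0.19 to 0.76) and -0.90 for Itgb8 (-1.63 to -0.17). These intervals leave room for differences of more than the 1.5-fold threshold, so they do not show equal levels. Itga6 passed without v-Src array 5 (0.71) or STAT3-C array 2 (0.70), and its second probeset passed at 1.16 ± 0.21 (limma adjusted p = 0.00856). Itgb8 passed without STAT3-C array 3 (-1.26). For Lama4, which was lower in both, the difference was 0.16 (-0.24 to 0.57).

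Lamc1, Itga5 and Lamb3 also changed call here on leaving out 1 array. Lamc1 differed by 0.55 at its brighter probeset (limma adjusted p = 0.0723) and passed without v-Src array 5 (0.72) or STAT3-C array 2 (0.70), and its other probeset passed at 1.69 ± 0.26 (limma adjusted p = 0.00456). Itga5 differed by 0.49 and passed without v-Src array 5 (0.61). Lamb3 differed by -0.53 and passed without STAT3-C array 3 (-0.72). Of the 27 genes that did not pass, 9 had an unadjusted p under 0.05. So did 5 of 24 for v-Src against control and 4 of 23 for STAT3-C against control. The same share over all genes was not computed, so these counts show nothing particular to the subunits.

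**Figure D4:**
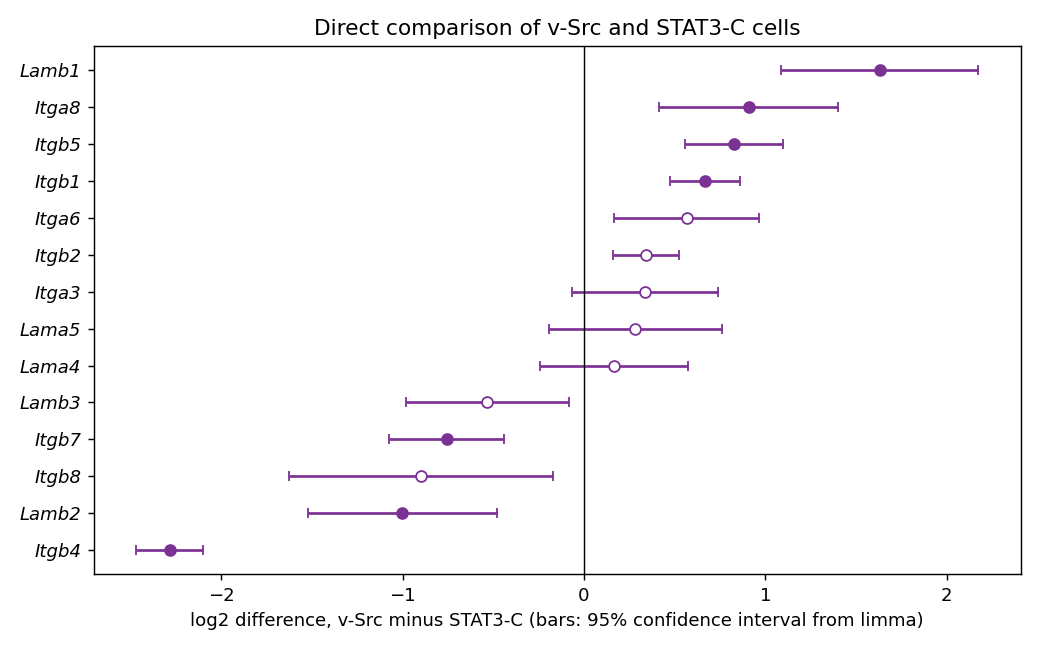
Log2 difference of v-Src minus STAT3-C cells for the 14 subunit genes that passed in at least 1 comparison. Bars are 95% confidence intervals from the limma fit of 3 arrays against 3. Filled symbols passed the test. Lamb1 lies farthest to the right and Itgb4 farthest to the left, and the wide interval of Itgb8 reaches from -1.63 to -0.17.

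Genes that work with these subunits were read from 6 lists, whose counts stand against the shares of all genes given above: 9.54% up and 10.4% down in v-Src cells, 11.9% up and 10.3% down in STAT3-C cells, and 4.84% up and 6.83% down in v-Src set against STAT3-C cells. Of 23 integrin ligands, 2 rose and 8 fell in v-Src cells (median -0.11, beside 0.02 over all genes), and 1 was higher and 9 lower in STAT3-C cells (median -0.38, beside 0.04). Postn, periostin, and Tnc, tenascin C, both matrix ligands of Itgav integrins, had the largest falls, with Postn differing by -5.90 and Tnc by -5.58 in v-Src cells and by -6.25 and -5.50 in STAT3-C cells. The mean of Tnc was 4.87 in v-Src cells and 4.95 in STAT3-C cells, under 5.12, so its differences may understate the fall. Vcam1, the ligand of Itga4 with Itgb1 or Itgb7, named here after its values were seen, fell by 3.28 in v-Src cells (SE 0.20, limma adjusted p = 5.77e-05) and by 3.16 in STAT3-C cells (SE 0.14, limma adjusted p = 4.51e-06). Mfge8, a secreted ligand of Itgav integrins that bridges to dying cells, was higher by 1.04 ± 0.10 in v-Src cells and by 1.13 ± 0.11 in STAT3-C cells. Fn1, fibronectin, was higher in v-Src cells by 1.13 ± 0.11 (limma adjusted p = 0.000332) and differed by 0.30 in STAT3-C cells.

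Of 14 basement membrane partners of laminin, 1 was higher and 1 lower in v-Src cells (median -0.11), counts near those shares, and 1 was higher and 4 lower in STAT3-C cells (median 0.07). Nid1, nidogen, which links laminin to collagen IV, fell by 1.70 in v-Src cells (SE 0.18, limma adjusted p = 0.00059) and by 1.33 in STAT3-C cells (SE 0.10, limma adjusted p = 6.34e-05). Its relative Nid2 was higher in STAT3-C cells by 1.46 ± 0.14 and differed by 0.08 in v-Src cells. The collagen IV chains Col4a1 and Col4a2 fell by 1.73 and 1.57 in STAT3-C cells and differed by -0.10 and -0.45 in v-Src cells. Col18a1, a basement membrane collagen, was higher in v-Src cells by 2.88 ± 0.16 (limma adjusted p = 3.76e-05).

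Between the transfected lines, 3 of these 14 stood higher and 2 lower in the v-Src line, against 4.84% up and 6.83% down over all genes. Col4a1 was higher in v-Src cells by 1.62 ± 0.19 (limma adjusted p = 0.00167), Col18a1 by 2.37 ± 0.17 (limma adjusted p = 0.000384) and Col4a2 by 1.11 ± 0.26 (limma adjusted p = 0.0247), while Nid2 was lower by 1.38 (SE 0.13, limma adjusted p = 0.000857).

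Of 11 genes of laminin receptors other than integrins and of the dystroglycan complex, 3 were higher and 2 lower in each line. Sdc4, a syndecan of focal adhesions, was higher by 2.38 ± 0.13 in v-Src cells and by 0.95 ± 0.15 in STAT3-C cells, and Sgcb, a sarcoglycan of the dystroglycan complex, by 1.82 ± 0.22 in v-Src cells and 1.47 ± 0.19 in STAT3-C cells. Of 27 adaptors and kinases of focal adhesions, 3 rose and 3 fell in v-Src cells, and 3 were higher and 2 lower in STAT3-C cells, counts near the shares of all genes. Zyx, the zyxin of mature adhesions and stress fibres, fell by 1.33 in v-Src cells and by 1.39 in STAT3-C cells, and Parvb, a parvin that binds integrin-linked kinase, was higher by 2.26 ± 0.14 in v-Src cells and differed by 0.36 in STAT3-C cells. Itgb1bp1, an inhibitor of Itgb1 activation, was higher by 1.28 ± 0.09 in STAT3-C cells and differed by 0.21 in v-Src cells.

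Of 8 tetraspanins and other lateral partners of integrins, none passed in v-Src cells, and in STAT3-C cells Cd151 was higher while Slc3a2, the CD98 heavy chain that binds beta tails, fell by 1.03 (SE 0.14, limma adjusted p = 0.000849).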

How the data were processed

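Total RNA was measured on 9 Affymetrix Mouse Genome arrays, 3 for each Balb/c-3T3 line. The authors normalized the scans by Robust Multichip Average (RMA), and the deposited values are log2 expression per probeset, with background correction, quantile normalization and probe summary already applied. RMA compresses low signals, so changes near background can be understated, and the number of arrays limits the precision. From the 45101 rows, 64 control probesets were left out, and probesets were named through the array's platform annotation, in which 932 carried several symbols and 9160 none. Each pair of lines was compared with limma 3.58.1 in R 4.3.3 (lmFit and eBayes, 6 arrays a fit), with Benjamini-Hochberg adjustment over 45037 probesets. No filter on low values was applied.

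The fit was also run on simulated data with 100 probesets changed 2-fold and 100 changed 4-fold, under independent normal noise. For v-Src against control it recovered 75% of 2-fold and 95% of 4-fold changes. The shares were 69% and 96% for STAT3-C against control, and 67% and 98% for v-Src against STAT3-C. False calls were 3, 12 and 7 among 45037 probesets. In the real data 7586, 8223 and 4645 probesets passed in these comparisons, so the simulated rates do not carry over to them. The alternatives were SAM (the methods' test, 20 groupings, q under 5%), other scalings, thresholds, filters and fits, averaging a gene's probesets, and each array left out. All members could be named, with values per array for those that passed at the probeset standing for the gene, and, from each list of partner genes, up to 2 genes a direction and comparison with the largest change. Genes whose other probesets differed in call, and marker genes, were shown beside them. The members and lists were chosen with earlier results of these data known. Promoter windows came from RefSeq tables and were read with Python 3.11.15.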

Additional observations from a re-analysis of the deposited data

Results flagged for a closer look

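Differences between the transfected lines passed the direct test of v-Src against STAT3-C cells at 16 probesets of the subunit genes, and each was picked out because the 2 lines then differ in their change from the same 3 control arrays. The laminin chains gave 6 of these, with Lamb1 higher in v-Src cells at all 4 of its probesets (2.61, 2.17, 1.63 and 0.72 on the log2 scale) and Lamc1 higher at 1 of 2 (1.69). In the same comparison Lamb2 fell by 1.00 in v-Src cells. Beta subunits gave 4, with Itgb4 at -2.28, Itgb7 at -0.76, Itgb5 at 0.83 and Itgb1 at 0.67. Alpha subunits gave 6, with Itgav at 1.21, Itga6 at 1.16, Itga5 at 0.81, Itga3 at 0.77 and Itgae at -0.67, each at a probeset other than the brightest of its gene, and Itga8 at 0.91.

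Several of these calls were lost on leaving out 1 array, which also leaves fewer arrays in the fit. The Itga3 difference no longer passed without STAT3-C array 1 (0.64), the Itga5 difference without v-Src array 6 (0.64) or STAT3-C array 1 (0.78) or 3 (0.69), and the Itgae difference without STAT3-C array 2 (-0.55). The calls of Itga8 and Lamb2 were each lost on leaving out any of 4 arrays. With 3 arrays a line, no array was tested as an outlier within its line.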

How the results depend on the processing

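Of the 28 calls made for single genes, 17 were made under every alternative that could be run, and none of the 28 changed direction. Raising the fold threshold to 2 left 4 probesets lower in v-Src cells than in control (7 before) and 2 genes lower in STAT3-C cells than in control (4 before). For v-Src against STAT3-C it left 6 probesets higher (12 before), 2 probesets lower (4 before) and 1 gene higher (4 before), and with no fold threshold 7 genes were higher. Leaving out 1 array at a time, v-Src against control had 15 to 18 probesets and 5 to 7 genes higher, with 6 to 7 probesets and 3 to 3 genes lower. STAT3-C against control had 13 to 15 probesets and 6 to 8 genes higher, with 8 to 11 probesets and 3 to 4 genes lower. v-Src against STAT3-C had 9 to 15 probesets and 3 to 7 genes higher, with 2 to 6 probesets and 2 to 5 genes lower, the extremes including 7 genes higher without v-Src array 5, 2 probesets lower without STAT3-C array 2 and 5 genes lower without STAT3-C array 3.

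Another quantile normalization ended the Lamb3 call in STAT3-C cells (0.61) and median centring did too (0.59), while median centring brought Itga5 past the threshold there (-0.60). The second quantile normalization also brought Itga6 (0.64) and Lamc1 (0.64) past it between the transfected lines. Itgb8 passed between the lines with SAM and with all 9 arrays in 1 fit (-0.90). Of 74 single-gene comparisons that did not pass, 16 passed in at least 1 alternative. The causes were not tested.

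STAT3-C and control arrays share the numbers 1, 2 and 3. Their deviations from the line means correlated at -0.09, 0.06 and 0.04 for same-numbered arrays and at -0.11 to 0.07 for differently numbered ones. These values show no pairing by number, but with 3 arrays a line they cannot exclude one. With the replicate block the counts for STAT3-C against control were 14 probesets and 7 genes higher and 9 probesets and 4 genes lower, and the block changed 0 of 73 calls. No paired analysis was possible for the v-Src arrays because they share only the number 1 with the other lines.

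Signal near background limits Itgb8 in control cells, Lama4 and Tnc in transfected cells and Itga8, for which changes are understated. With 1 line per condition and 3 passages each, replicate error does not include differences between independently made lines.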
